A study of Mus musculus with 36 samples.

Results

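The 42 genes described here build and run the mitotic spindle, or mark cells that are about to divide. They were taken by symbol from a list that was chosen with earlier results of these data known. All 42 of the 42 symbols were found among the 19879 genes of the deposited tables. The list held 11 roles, from cyclin-dependent kinase 1 and its cyclins to the transcription factors that switch the programme on. The genes lay on 16 chromosomes, 9 of them on chromosome 2, and every one passed the filter on low values in every comparison.

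The cells were BV-2, a mouse microglial line that was immortalised and divides in culture, and their RNA gave 36 libraries in 12 groups of 3. The groups were DMSO, ethanol (EtOH), lipopolysaccharide (LPS, 600 ng/mL), LPS+DMF, LPS+MMF and LPS+CBD, each at 4 h and at 24 h. LPS is a bacterial cell wall component that activates microglia. Dimethyl fumarate (DMF, 30 µM) is a diester of fumaric acid, monomethyl fumarate (MMF, 30 µM) is its monoester and main metabolite, and cannabidiol (CBD, 6 µM) is a non-psychotropic cannabinoid. DMSO dissolved DMF and MMF, EtOH dissolved CBD, and the vehicle was kept at 0.2%. Which vehicle the cells with LPS alone received is not stated. In comparisons of a drug with LPS, the drug and its solvent therefore cannot be told apart. In all 12 groups, controls included, serum had been lowered to 0.1% just before treatment, so that exposure time and time in low serum cannot be told apart. A single line of this kind is a limited model of resting brain microglia.

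Cells enter mitosis when cyclin B binds and activates CDK1. Polo-like and Aurora kinases then drive centrosome maturation and chromosome attachment, kinesin motors build the spindle, and the spindle checkpoint holds the cell until every kinetochore is attached. The anaphase-promoting complex with its activator CDC20 finally marks cyclin B and securin for destruction, separase cuts cohesin, and the midzone guides cytokinesis. Transcripts of most of these genes peak in G2 and M phase, when the MuvB complex with B-MYB and then FOXM1 activates promoters that carry CCAAT boxes and a cell cycle genes homology region (CHR). In a bulk sample, fewer cells in G2 and M phase and less mitotic RNA per cell cannot be told apart.

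Depth ran from 14.1 M to 26.7 M counted reads per library, with a median of 16.2 M. All 12 of 12 microglia and macrophage markers were detected, but Aif1 was low, at 1.33 to 9.42 CPM (reads scaled to the library's total). The defining neuron, astrocyte, oligodendrocyte, fibroblast and endothelial markers were at or near 0, with some exceptions. These were Mbp at 40.1 to 89.9 CPM, Map2 at 3.82 to 19.6 CPM and Pecam1 at 2.60 to 8.09 CPM. One library stood apart before any comparison. In EtOH 24 h replicate 4, 2865 of 2873 genes with 1 to 10 reads had an even number of reads (99.7%), against 38.3 to 42.3% in the other 35 libraries. Among genes with more than 100 reads the even share was 71.9% in that library, against 49.0 to 50.6% in the others. Comparisons that use that library are also given without it or with its reads halved.

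Promoters are shown first, because many of these genes are known to be switched on through shared promoter elements. RefSeq promoter windows (GRCm38.p6, 250 bases before to 50 bases after the start) were found for 34 of the 42 genes, in 36 windows. The motifs searched on both strands were CCAAT and 2 forms of the CHR, TTTGAA and TTCGAA, and matches that overlapped were counted separately. CCAAT was present in 26 of the 36 windows (72.2%), against 37.4% of all 32851 promoter windows. TTTGAA was present in 72.2% against 17.9%, and TTCGAA in 8.33% against 1.56%. CCAAT together with either form of the CHR was present in 66.7% of the windows, against 7.52% of all windows. A match of letters is a description and not a binding site, and no sequence was read for Incenp, Foxm1, Kif20a, Tpx2, Ccna2, Aurkb, Cdc25c and Spc24.

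The 200 bases upstream of the start are shown for 6 genes, chosen because they range from 9 matches to none. Capitals mark CCAAT or its reverse complement ATTGG, and TTTGAA, its reverse complement TTCAAA, or TTCGAA. All are written 5′ to 3′ on the gene's own strand, with GRCm38.p6 coordinates from RefSeq. Cdk1 (chr10:69352913-69353112, minus strand), Cdc20 (chr4:118437344-118437543, minus strand), Top2a (chr11:99024190-99024389, minus strand) and Mki67 (chr7:135716380-135716579, minus strand) carried both motifs, as did Ube2c (chr2:164769729-164769928, plus strand). Mybl2 (chr2:163054435-163054634, plus strand), which encodes B-MYB itself, carried neither in this window.
Cdk1: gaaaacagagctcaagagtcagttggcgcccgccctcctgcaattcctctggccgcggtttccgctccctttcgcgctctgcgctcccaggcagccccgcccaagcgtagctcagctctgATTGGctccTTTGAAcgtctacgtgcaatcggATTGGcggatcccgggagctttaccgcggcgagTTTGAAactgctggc
Cdc20: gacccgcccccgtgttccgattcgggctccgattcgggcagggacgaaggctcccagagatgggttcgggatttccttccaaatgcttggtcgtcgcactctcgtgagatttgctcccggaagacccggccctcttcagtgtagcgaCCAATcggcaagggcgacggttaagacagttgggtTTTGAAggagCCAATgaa
Ube2c: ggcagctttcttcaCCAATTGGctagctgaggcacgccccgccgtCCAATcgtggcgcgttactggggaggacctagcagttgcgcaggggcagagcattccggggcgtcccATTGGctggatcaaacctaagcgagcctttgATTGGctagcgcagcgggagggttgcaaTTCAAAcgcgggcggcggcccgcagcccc
Top2a: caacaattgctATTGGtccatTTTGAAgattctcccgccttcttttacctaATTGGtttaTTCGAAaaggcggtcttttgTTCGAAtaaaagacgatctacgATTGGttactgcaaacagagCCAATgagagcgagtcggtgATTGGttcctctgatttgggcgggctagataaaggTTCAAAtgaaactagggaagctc
Mki67: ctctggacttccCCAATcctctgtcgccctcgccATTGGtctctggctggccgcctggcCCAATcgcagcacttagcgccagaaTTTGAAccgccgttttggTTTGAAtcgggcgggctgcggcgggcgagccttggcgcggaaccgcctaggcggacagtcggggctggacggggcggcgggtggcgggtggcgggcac
Mybl2: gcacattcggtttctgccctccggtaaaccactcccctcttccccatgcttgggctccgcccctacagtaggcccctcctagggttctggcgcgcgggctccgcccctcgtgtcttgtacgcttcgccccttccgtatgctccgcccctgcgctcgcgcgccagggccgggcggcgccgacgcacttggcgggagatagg

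The promoter matches can be read beside the changes at 24 h against LPS, which are described further below. At that time the median log2 fold change of the 25 genes with a CHR match was -0.76 with DMF and -1.19 with CBD, and that of the 9 genes without one was -0.67 and -1.05. Mybl2, with no match, had a log2 fold change of -0.38 with DMF and -1.17 with CBD. Top2a, with 9 matches in the printed stretch, had -0.997 and -1.38. No test was made of these medians.

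The first question was how the mitotic genes stood across the 12 groups. Levels are given here as normalised read counts, set across all 36 libraries by joint size factors from the recovered reads, because the deposited tables were normalised pair by pair. Fold changes come from the values of each comparison's own table. Summed over the 42 genes, the 6 groups at 4 h had means between 93139 and 106586 normalised counts. At 24 h the means were 79576 ± 5824 in EtOH, 78036 ± 6152 in LPS, 76094 ± 8074 in DMSO and 72528 ± 7644 in LPS+MMF (SD, n = 3). These 4 groups overlapped each other. LPS+DMF stood at 47582 ± 10320 and LPS+CBD at 34851 ± 5493. The libraries of LPS+DMF at 24 h held 59123, 39242 and 44382 and those of LPS+CBD 41147, 32373 and 31033, so these groups overlapped each other while neither reached the lowest library of any other group, at 63703.

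**Figure D1:**
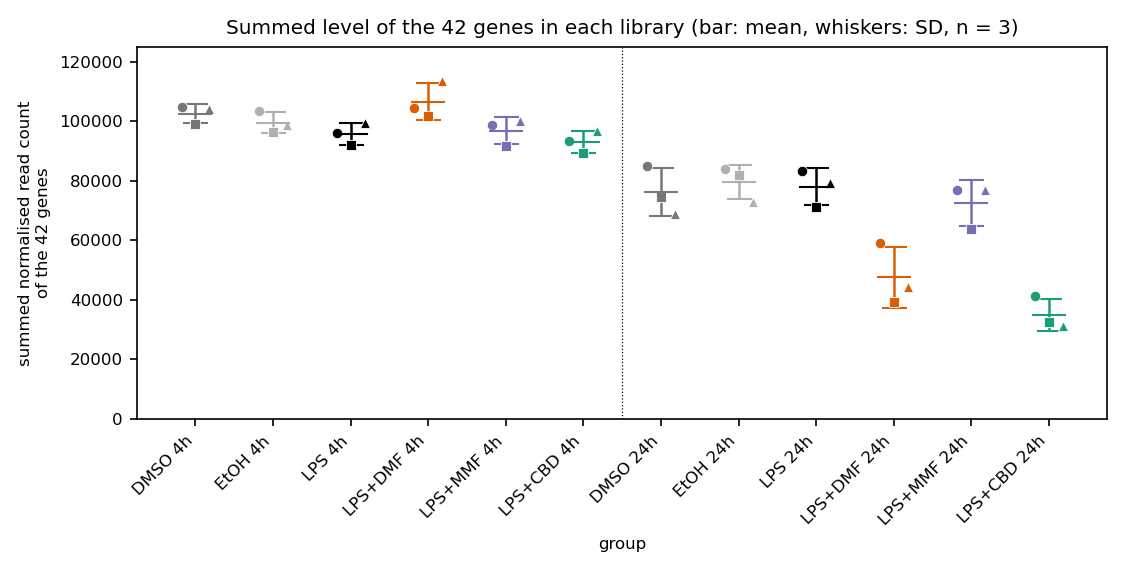
Summed level of the 42 mitotic genes in each of the 36 libraries, in normalised counts, by group. Circles, squares and triangles are replicates 1, 2 and 3 (4, 5 and 6 in the vehicle groups, which the labels do not pair with 1, 2 and 3), bars are means and whiskers the SD of 3 libraries. LPS+DMF and LPS+CBD at 24 h lie below all other groups, with means of 47582 and 34851 against 72528 or more.

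Single genes followed the sum. LPS+CBD at 24 h was the lowest of the 12 group means for 39 of the 42 genes and LPS+DMF at 24 h for the other 3, which were Cdc25c, Mad2l1 and Pttg1. Each of these 2 groups was the second lowest where it was not the lowest. The highest mean was that of LPS+DMF at 4 h for 22 genes, DMSO at 4 h for 10 and EtOH at 4 h for 6. Levels per kilobase used each gene's longest annotated transcript, which was 4745 nt for the kinetochore gene Spc25, and they depend on that choice. On this scale the lowest levels in DMSO at 4 h were 90.8 normalised counts for Cdc25c, the phosphatase that activates CDK1, and 91.1 for Spc25. The highest were 1363 for Top2a and 2096 for Cdc20.

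The libraries of a group deviated together over the whole set. In LPS+DMF at 24 h, replicate 1 was the highest of the 3 libraries in 42 of 42 genes and replicate 2 the lowest in 39. In LPS at 24 h replicate 2 was the lowest in 41 genes, in LPS+MMF at 24 h replicate 2 in 40, and in LPS+CBD at 24 h replicate 1 was the highest in 41. The median coefficient of variation over the genes was 22.9% in LPS+DMF and 17.1% in LPS+CBD at 24 h, against 5.59 to 8.35% in the groups at 4 h. The genes of this set are therefore not independent of each other within a library, and counts of genes that pass a test are to be read with that in mind.

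**Figure D2:**
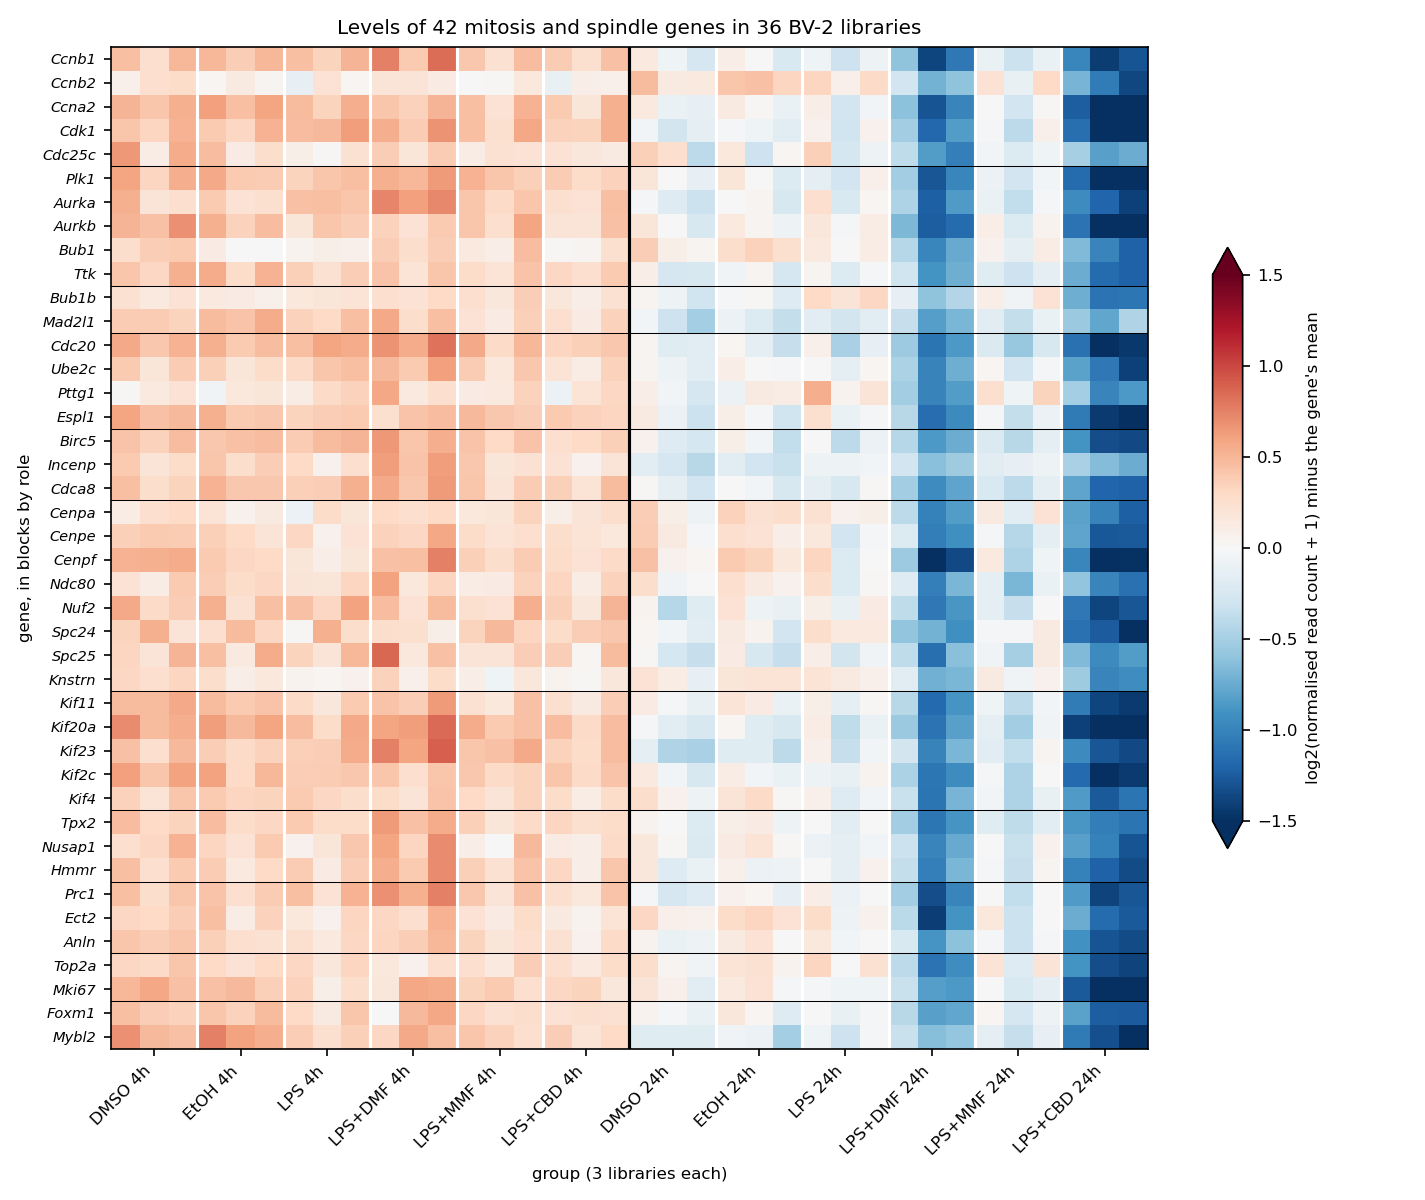
Level of each of the 42 genes (rows, ordered by role) in each of the 36 libraries (columns, by group), as log2 of the normalised count plus 1 minus the gene's mean over all libraries, with the colour scale ending at ±1.5. The 6 columns of LPS+DMF and LPS+CBD at 24 h are low through nearly all rows, with LPS+DMF replicate 1 the least low of its group.

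The comparison of the exposure times asked how the genes stood after a day of treatment. Most of them were lower at 24 h than at 4 h in every treatment, vehicles included. Summed levels at 24 h were 74.1% of those at 4 h in DMSO, 79.9% in EtOH, 81.4% in LPS and 74.9% in LPS+MMF, 44.6% in LPS+DMF and 37.4% in LPS+CBD. With limma, 34 of 42 genes were lower in DMSO (25.8% of all tested genes were), 27 in LPS (24.3%) and 32 in LPS+MMF (24.3%). In LPS+DMF 42 were lower (29.1% of all tested genes) and in LPS+CBD 42 (31.6%). In EtOH 29 were lower (29.5%) and 2 higher (29.1%). These 2 were Ccnb2, encoding cyclin B2, with a log2 fold change of 0.31 (limma adjusted p = 0.00285), and Bub1, a checkpoint kinase, with 0.22 (limma adjusted p = 0.0163). With the reads of EtOH replicate 4 at 24 h halved, edgeR called 31 genes in EtOH and DESeq2 30, and without that library limma called 32.

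The median log2 fold change between the times was -0.49 in DMSO, -0.38 in EtOH, -0.33 in LPS, -0.46 in LPS+MMF, -1.20 in LPS+DMF and -1.43 in LPS+CBD. The genes that fell furthest in DMSO were Kif23, Mybl2 and Kif20a (-0.78, -0.74 and -0.74), and in EtOH Mybl2, Mad2l1 and Kif20a (-0.87, -0.73 and -0.73). In LPS they were Cdc20, Birc5 and Cdk1 (-0.72, -0.62 and -0.59), and in LPS+MMF Cdc20, Kif20a and Birc5 (-0.80, -0.71 and -0.65). In LPS+DMF they were Cenpf, Ccnb1 and Prc1 (-1.74, -1.69 and -1.62) and in LPS+CBD Kif20a, Ccna2 and Cdk1 (-2.10, -1.92 and -1.88). Cenpa, the centromeric histone variant, Pttg1, which encodes securin, and Ect2, the exchange factor that starts furrowing, did not pass the test in DMSO, EtOH, LPS or LPS+MMF. Their log2 fold changes were -1.03, -1.12 and -1.28 in LPS+DMF and -1.20, -0.94 and -1.20 in LPS+CBD, where all 3 passed. Of the 8 genes followed throughout, Top2a did not pass in EtOH (-0.13), LPS (-0.09) or LPS+MMF (-0.19) and the other 7 were lower in every treatment. In LPS 18 genes were called without LPS replicate 3 at 4 h.

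Few of the genes changed with LPS itself. Library values in the LPS comparisons are given on the scale of each comparison's own table. Against DMSO at 4 h, 3 of 42 genes were lower (6.38% of all tested genes were) and none higher, with a median log2 fold change of -0.09 where that of all tested genes was -0.00. Cenpf, a kinetochore and nuclear envelope protein of G2 and M phase, had 1669, 1578 and 1657 normalised counts in LPS and 2103, 2157 and 2178 in DMSO, without overlap (log2 fold change -0.39, SE 0.06, limma adjusted p = 0.00412). Bub1 and Knstrn, a spindle and kinetochore adaptor, had log2 fold changes of -0.27 and -0.26 (limma adjusted p = 0.0273 and 0.0271). None of the 3 calls stood with all 36 libraries in 1 fit. Those of Bub1 and Knstrn were also lost without LPS replicate 1 or 3 and without DMSO replicate 5 or 6, and that of Knstrn without DMSO replicate 4. The 8 genes that stand for the programme are followed through every comparison, and with LPS against DMSO at 4 h their log2 fold changes were 0.03 for Ccnb1, 0.11 for Cdk1, -0.09 for Plk1, 0.03 for Cdc20, -0.28 for Mki67, -0.07 for Top2a, -0.11 for Foxm1 and -0.22 for Mybl2, none of them called. In 11 genes the groups did not overlap, all of them lower in LPS, where 17.6% of all tested genes were lower without overlap.

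Against EtOH at 4 h, 1 gene was lower with LPS (4.48% of all tested genes), and it was Mybl2. It had 2356, 2173 and 2339 normalised counts in LPS and 3066, 2798 and 2662 in EtOH (log2 fold change -0.31, SE 0.07, limma adjusted p = 0.0286), so every LPS library was below every EtOH library. Against DMSO its log2 fold change was -0.22 (limma adjusted p = 0.0931). The other 7 of the genes followed ran from -0.20 for Mki67 to 0.12 for Cdk1 against EtOH, and none passed. The call against EtOH was lost without LPS replicate 3, without any 1 of the EtOH libraries, with the GC and length trend removed and with all 36 libraries in 1 fit.

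At 24 h 1 gene was higher with LPS against DMSO (12.1% of all tested genes) and 1 against EtOH (10.8%), in both cases Bub1b, which encodes the checkpoint protein BubR1. It had 3655, 3420.2 and 3657 normalised counts in LPS and 3016, 2808 and 2386 in DMSO (log2 fold change 0.39, SE 0.09, limma adjusted p = 0.00855). Against EtOH it had 4415, 4135 and 4413 in LPS and 3468, 3616 and 3115 in EtOH (log2 fold change 0.35, SE 0.08, limma adjusted p = 0.00852). No LPS library overlapped a vehicle library in either table. Without EtOH replicate 4 the count against EtOH was 2, with its reads halved edgeR called 1 and DESeq2 1, and without LPS replicate 3 the call of Bub1b against EtOH was lost. The medians over the 42 genes were 0.03 against DMSO and -0.02 against EtOH. Against DMSO the log2 fold changes of the 8 genes followed throughout were -0.08 for Ccnb1, 0.10 for Cdk1, -0.12 for Plk1, -0.06 for Cdc20, -0.07 for Mki67, 0.11 for Top2a, -0.01 for Foxm1 and 0.06 for Mybl2, and none passed the test. Against EtOH none of them passed either, from -0.15 for Mki67 to 0.09 for Mybl2.

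With DMF added to LPS for 24 h, all 42 genes were lower than in LPS (limma, adjusted p below 0.05), where 13.2% of the 11670 tested genes were lower, and the median log2 fold change was -0.73 against -0.01 over all tested genes. In 39 genes the groups did not overlap, where 21.6% of all tested genes were lower without overlap. The exceptions were Cenpe, Ndc80 and Kif23. The summed level was 61.0% of the LPS mean, and 70.9, 55.0 and 55.9% of LPS for same-numbered libraries. The log2 fold changes ran from -1.22 in Cenpf to -0.38 in Mybl2, and 3 genes fell by more than 1 on the log2 scale.

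With CBD added to LPS for 24 h, all 42 genes were lower as well, where 24.8% of the 11671 tested genes were, and no CBD library overlapped an LPS library in any of the 42, where 29.4% of all tested genes were lower without overlap. The median log2 fold change was -1.15 against -0.00 over all tested genes, and 32 genes fell by more than 1 on the log2 scale. The summed level was 44.7% of the LPS mean, and 49.3, 45.4 and 39.1% for same-numbered libraries. The share of reads from mitochondrial genes was also low in this group. It was 1.396, 1.25 and 1.33% in LPS+CBD against 1.44, 2.32 and 2.04% in LPS at 24 h, and 1.83 to 2.27% in the other 30 libraries. Whether this share is related to the levels of the 42 genes was not tested. The log2 fold changes ran from -1.56 in Kif20a to -0.39 in Mad2l1. DMF and CBD were given at different doses, and the DMF, MMF and CBD comparisons share the same LPS libraries, so their values are set side by side below and were not compared by a test.

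**Figure D3:**
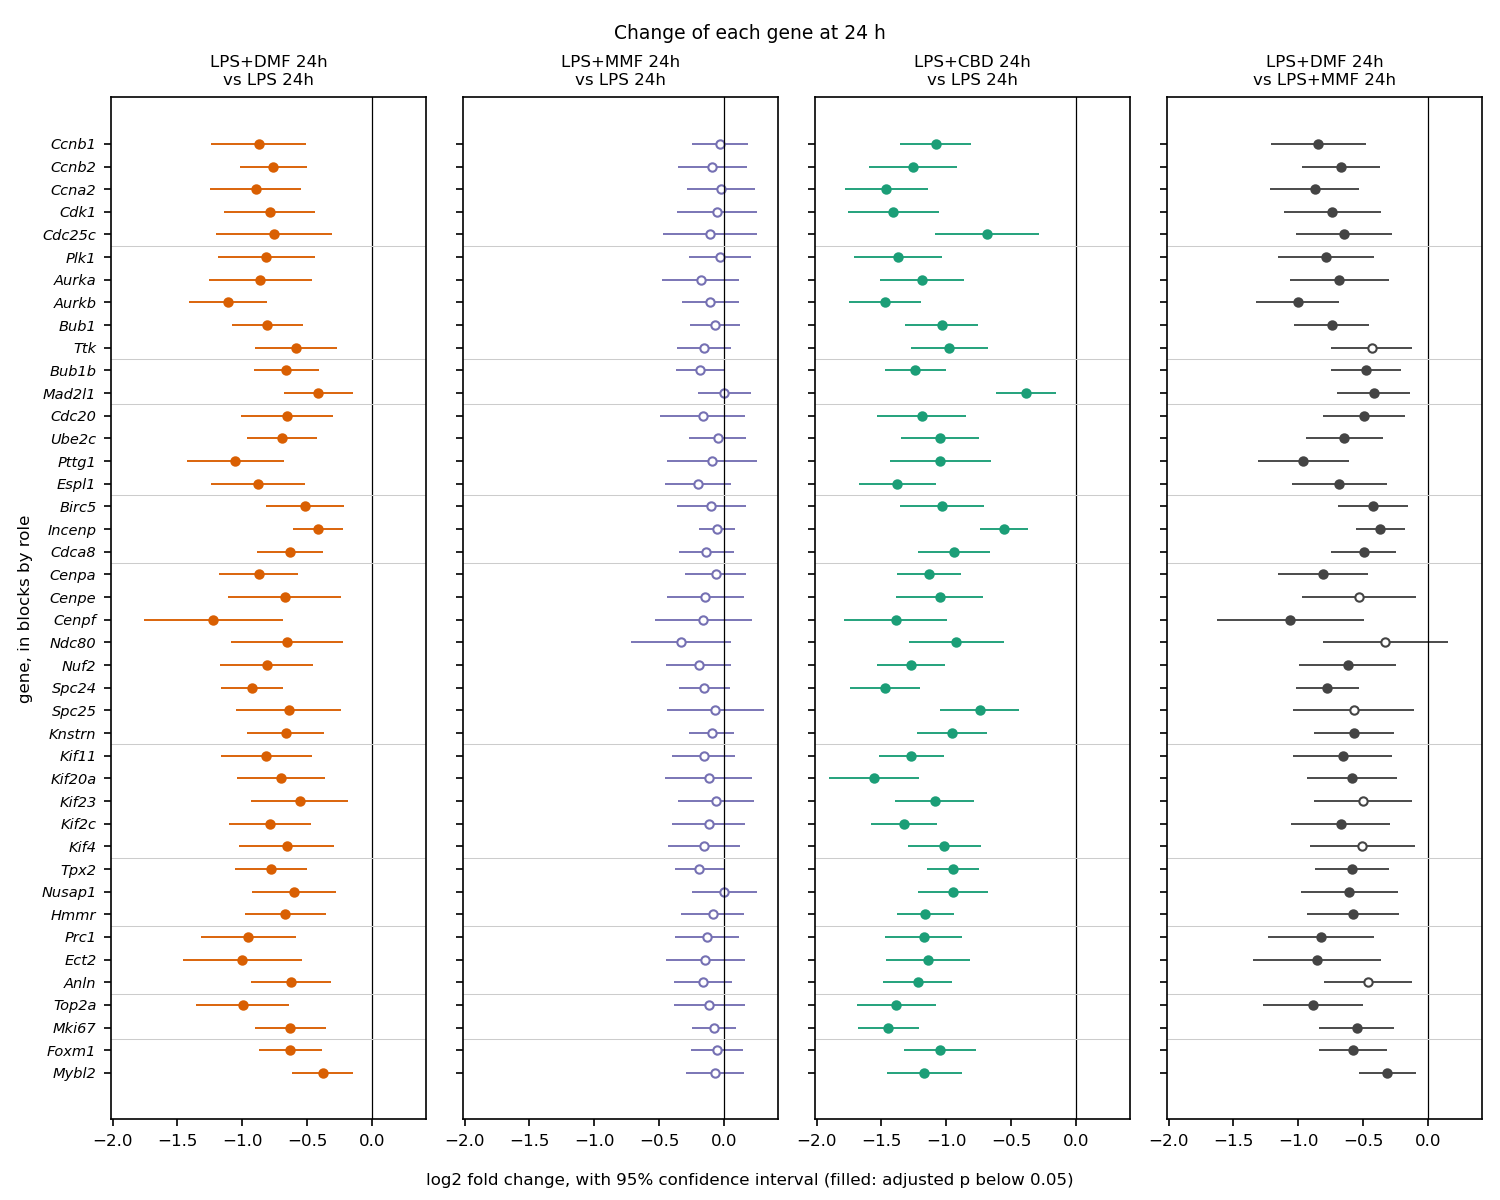
Log2 fold change of each of the 42 genes at 24 h with its 95% confidence interval, for DMF, MMF and CBD each with LPS against LPS, and for LPS+DMF against LPS+MMF. Filled points passed the test (limma adjusted p below 0.05). All points of DMF and CBD are filled and lie below 0, none of MMF is filled, and 35 are filled in DMF against MMF.

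CDK1 and its partners fell with both drugs, with medians over the 5 genes of -0.79 for DMF and -1.26 for CBD. Cdk1 (ENSMUSG00000019942, chr10:69170976-69188768, minus strand, GRCm39, as are the gene positions below), the kinase that drives entry into mitosis, had 1967, 1523 and 1961 normalised counts in the LPS libraries, 1312, 827 and 1050.5 in LPS+DMF and 858, 566 and 640.2 in LPS+CBD. No LPS+DMF library reached the lowest LPS library, and the LPS+CBD libraries were lower still, apart from an overlap of LPS+CBD replicate 1 with LPS+DMF replicate 2. Against LPS the gene changed with DMF (log2 fold change -0.79, SE 0.16, limma adjusted p = 0.00615) and with CBD (log2 fold change -1.41, SE 0.16, limma adjusted p = 0.000108). Ccnb1 (ENSMUSG00000041431, chr13:100915158-100923078, minus strand), encoding cyclin B1, had 2141, 1796 and 2123 in LPS, 1466, 856 and 1061 in LPS+DMF and 1131, 830.2 and 906 in LPS+CBD. Both drug groups were below all LPS libraries and overlapped each other (log2 fold change -0.87, SE 0.17, limma adjusted p = 0.00452 for DMF and log2 fold change -1.08, SE 0.12, limma adjusted p = 0.000118 for CBD). Ccna2, encoding cyclin A2, which acts from S phase into early mitosis, had log2 fold changes of -0.90 and -1.46, and Ccnb2 -0.76 and -1.26. Cdc25c, the lowest of these genes, had 266, 172 and 197 in LPS, 159, 115 and 101 in LPS+DMF and 146, 118 and 123 in LPS+CBD, and the drug groups overlapped.

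The mitotic kinases had medians of -0.81 with DMF and -1.19 with CBD over 5 genes. Aurkb (ENSMUSG00000020897, chr11:68936473-68942490, plus strand), the kinase of the chromosomal passenger complex that corrects faulty attachments, had 1628, 1432 and 1564 normalised counts in LPS, 906, 617 and 651 in LPS+DMF and 672, 514 and 488 in LPS+CBD. The lowest LPS library was above the highest of either drug. The gene changed with DMF (log2 fold change -1.11, SE 0.13, limma adjusted p = 0.000575) and with CBD (log2 fold change -1.47, SE 0.12, limma adjusted p = 2.39e-05). Plk1, the polo-like kinase, had 1340.2, 1202 and 1550.1 in LPS, 1025, 603 and 745 in LPS+DMF and 661, 489 and 439 in LPS+CBD (log2 fold change -0.81, SE 0.17, limma adjusted p = 0.00724 for DMF and log2 fold change -1.37, SE 0.15, limma adjusted p = 0.000102 for CBD). Aurka, which acts at spindle poles, had log2 fold changes of -0.86 and -1.19, Bub1 -0.81 and -1.04, and Ttk, the checkpoint kinase MPS1, -0.58 and -0.98.

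The spindle checkpoint genes held the smallest change with CBD. Mad2l1, whose protein MAD2 inhibits CDC20, had 693, 646 and 693 normalised counts in LPS, 612, 441 and 485 in LPS+DMF and 531, 454 and 570.4 in LPS+CBD. The drug groups were below the LPS libraries and overlapped each other (log2 fold change -0.41, SE 0.12, limma adjusted p = 0.0293 for DMF and log2 fold change -0.39, SE 0.10, limma adjusted p = 0.0125 for CBD). Without LPS replicate 3, neither call stood. Bub1b had log2 fold changes of -0.66 with DMF and -1.24 with CBD.

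Among the genes of anaphase, Cdc20 (ENSMUSG00000006398, chr4:118290098-118294549, minus strand) had 2889, 1959 and 2515 normalised counts in LPS, 1881, 1283 and 1514 in LPS+DMF and 1264, 929 and 1009.6 in LPS+CBD. The highest LPS+DMF library, at 1881, was just below the lowest LPS library, at 1959, and the CBD libraries were below all of these (log2 fold change -0.65, SE 0.16, limma adjusted p = 0.0146 for DMF and log2 fold change -1.19, SE 0.15, limma adjusted p = 0.000248 for CBD). Pttg1, which encodes securin, the inhibitor of separase, had nearly the same value in both (log2 fold change -1.05, SE 0.17, limma adjusted p = 0.00211 for DMF and log2 fold change -1.05, SE 0.17, limma adjusted p = 0.001 for CBD). It had 324, 229.97 and 254 in LPS, 155, 109.7 and 124 in LPS+DMF and 156, 111 and 122 in LPS+CBD. Espl1, encoding separase itself, had log2 fold changes of -0.88 and -1.38, and Ube2c, the ubiquitin-conjugating enzyme of the anaphase-promoting complex, -0.69 and -1.05.

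Aurkb, the kinase of the chromosomal passenger complex, was counted with the mitotic kinases (-1.11 with DMF). The other chromosomal passenger genes had a median of -0.52 with DMF and -0.94 with CBD. That was the smallest change with DMF among the groups of 3 or more genes. Incenp, the scaffold that activates Aurora B, had 4347, 4328 and 4436 normalised counts in LPS, 3738, 2974 and 3165 in LPS+DMF and 3270.2, 2922 and 2729 in LPS+CBD. Its LPS libraries lay close together and above both drugs (log2 fold change -0.42, SE 0.09, limma adjusted p = 0.00762 for DMF and log2 fold change -0.55, SE 0.08, limma adjusted p = 0.000502 for CBD). Birc5, encoding survivin, had -0.52 and -1.03, and Cdca8, encoding borealin, -0.63 and -0.94.

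The 8 centromere and kinetochore genes had medians of -0.74 with DMF and -1.09 with CBD, and held the largest fall with DMF. Cenpf (ENSMUSG00000026605, chr1:189372803-189420283, minus strand) had 1944, 1354 and 1546 normalised counts in LPS, 1071, 489.9 and 612 in LPS+DMF and 793, 505 and 558 in LPS+CBD. The LPS+DMF libraries spread from 490 to 1071 and all lay below the LPS libraries (log2 fold change -1.22, SE 0.24, limma adjusted p = 0.00561 for DMF and log2 fold change -1.39, SE 0.18, limma adjusted p = 0.000227 for CBD). Spc24 and Spc25 encode partners in the Ndc80 complex, which holds the microtubule at the kinetochore. Spc24 had 558, 515 and 516 in LPS, 309, 284 and 245 in LPS+DMF and 214, 196 and 163 in LPS+CBD, with the 3 groups apart (log2 fold change -0.93, SE 0.11, limma adjusted p = 0.000476 for DMF and log2 fold change -1.47, SE 0.12, limma adjusted p = 2.34e-05 for CBD). Spc25 had log2 fold changes of -0.64 and -0.74, with standard errors of 0.18 and 0.14. The other members of that complex, Ndc80 and Nuf2, had -0.66 and -0.81 with DMF and -0.92 and -1.27 with CBD. In Ndc80, LPS+DMF replicate 1 at 419 lay above LPS replicate 2 at 414. Cenpa had -0.87 and -1.13, the kinetochore motor Cenpe -0.67 and -1.05, and Knstrn -0.67 and -0.95.

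The kinesins had medians of -0.70 with DMF and -1.27 with CBD over 5 genes. Kif20a, a motor of the central spindle, had 1358, 968 and 1180.5 normalised counts in LPS, 859, 586 and 719 in LPS+DMF and 478, 369 and 341 in LPS+CBD. The 3 groups were apart, with group means of 396 ± 72.6 in LPS+CBD and 1169 ± 195 in LPS (SD, n = 3). This was the largest change with CBD (log2 fold change -1.56, SE 0.15, limma adjusted p = 5.69e-05). With DMF the log2 fold change was -0.70 (limma adjusted p = 0.00911). Kif11, the motor that pushes spindle poles apart, had -0.81 and -1.27, Kif2c, a microtubule depolymerase, -0.79 and -1.32, and the chromokinesin Kif4 -0.66 and -1.01. Kif23, a motor of the midzone, had the smallest change with DMF among the kinesins, -0.56 (limma adjusted p = 0.0359), against -1.09 with CBD.

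Spindle assembly and cytokinesis genes followed. Prc1, which bundles midzone microtubules, had 1979.97, 1742 and 1864 normalised counts in LPS, 1288, 735 and 933 in LPS+DMF and 1029.7, 706 and 760.2 in LPS+CBD. No drug library reached an LPS library (log2 fold change -0.96, SE 0.17, limma adjusted p = 0.00295 for DMF and log2 fold change -1.17, SE 0.13, limma adjusted p = 0.000115 for CBD). Ect2 had log2 fold changes of -0.998 and -1.14, and Anln, encoding anillin of the contractile ring, -0.62 and -1.22. Tpx2, the targeting factor of Aurora A, had -0.78 and -0.95, Nusap1 -0.60 and -0.95, and Hmmr -0.67 and -1.16.

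Top2a and Mki67 were among the most abundant transcripts of the set. Top2a (ENSMUSG00000020914, chr11:98883769-98915015, minus strand), topoisomerase II alpha, which untangles sister chromatids, had 7534, 6021 and 7053 normalised counts in LPS, 4587, 2792 and 3148 in LPS+DMF and 3231, 2395 and 2299 in LPS+CBD (log2 fold change -0.997, SE 0.16, limma adjusted p = 0.00221 for DMF and log2 fold change -1.38, SE 0.14, limma adjusted p = 5.33e-05 for CBD). Mki67 (ENSMUSG00000031004, chr7:135291513-135318090, minus strand), which encodes the proliferation marker Ki-67, had 8631, 8361 and 8389, 6925, 4939.6 and 4804 and 3665, 2974 and 2716 in the same order. Its CBD libraries were below all DMF libraries, and its DMF libraries below all LPS libraries (log2 fold change -0.63, SE 0.12, limma adjusted p = 0.0055 for DMF and log2 fold change -1.45, SE 0.11, limma adjusted p = 1.25e-05 for CBD).

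The transcription factors of the programme were lower too. Mybl2 had 1796, 1504 and 1832 normalised counts in LPS, 1482, 1206 and 1255 in LPS+DMF and 898, 749 and 640.2 in LPS+CBD. The highest LPS+DMF library was just below the lowest LPS library, and all LPS+CBD libraries were below both groups (log2 fold change -0.38, SE 0.11, limma adjusted p = 0.0251 for DMF and log2 fold change -1.17, SE 0.13, limma adjusted p = 0.000104 for CBD). Foxm1 had 1047, 974 and 1031 in LPS, 784, 595 and 609 in LPS+DMF and 601, 444 and 441 in LPS+CBD, and the LPS libraries overlapped neither drug group (log2 fold change -0.63, SE 0.11, limma adjusted p = 0.00309 for DMF and log2 fold change -1.05, SE 0.12, limma adjusted p = 0.000143 for CBD).

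**Figure D4:**
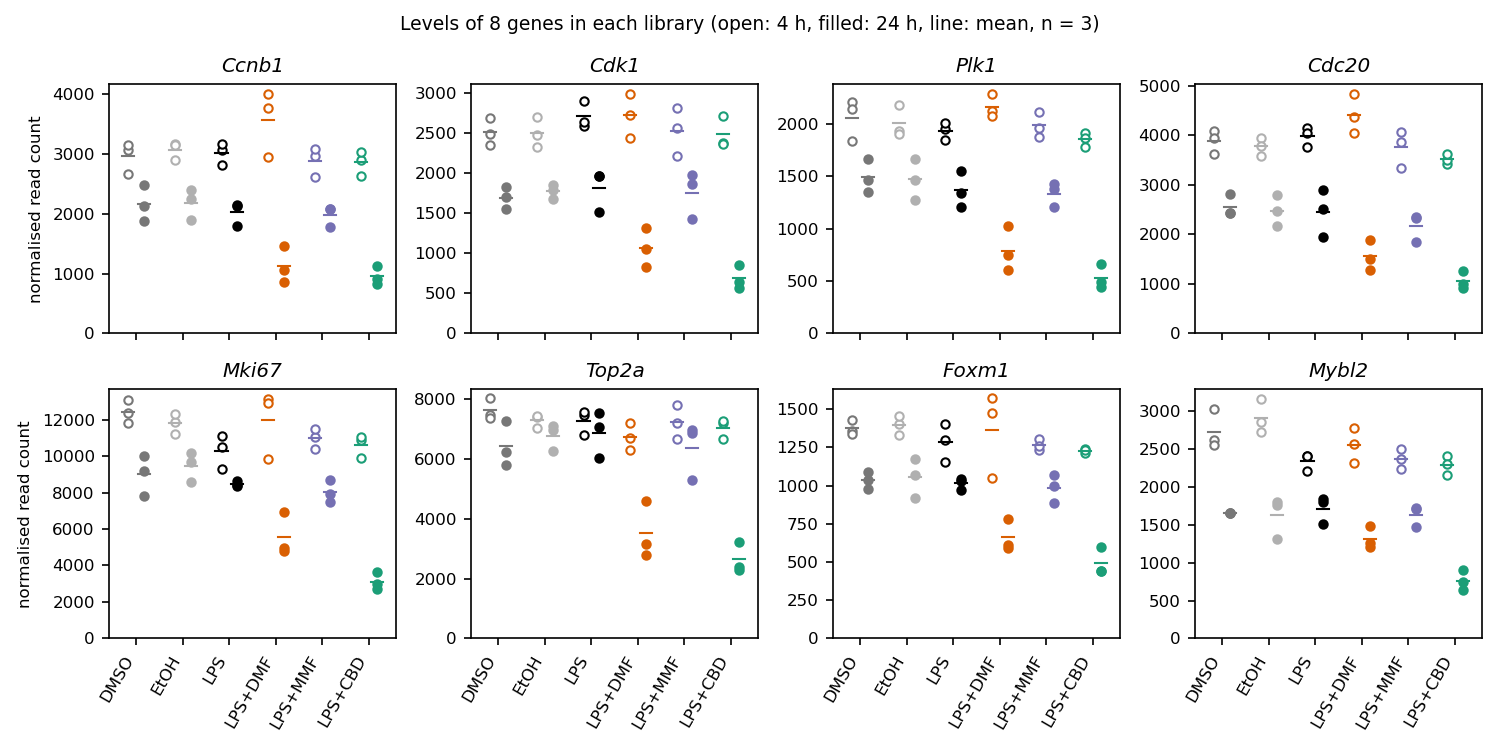
Normalised read counts of 8 of the 42 genes (Ccnb1, Cdk1, Plk1, Cdc20, Mki67, Top2a, Foxm1 and Mybl2) in each library by group, open points at 4 h and filled points at 24 h. In each gene LPS+CBD at 24 h has the lowest group mean, followed by LPS+DMF at 24 h, and the filled points of LPS+MMF overlap those of LPS.

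More calls with DMF than with CBD were lost when single libraries were left out. For DMF, 30 of the 42 calls stood in every one of 15 alternatives that kept the threshold. The other 12, of Birc5, Cdc20, Cdc25c, Cenpe, Kif23, Kif4, Mad2l1, Mybl2, Ndc80, Nusap1, Spc25 and Ttk, were lost both without LPS replicate 3 and without DMF replicate 3. Of these, 9 were also lost without DMF replicate 2, all but Cdc20, Kif4 and Nusap1, and 8 without LPS replicate 1, all but these and Ttk. Cenpe was not called by DESeq2 either. With the replicate number as a block, none of the 42 calls with DMF was lost. For CBD 41 stood, all but Mad2l1. The strand setting of the read counting was not stated. Exons of 19 of the 42 genes overlap exons of a gene on the opposite strand, among them Cdc20, Plk1, Aurka, Ube2c, Cenpf, Kif20a, Prc1 and Mybl2. On the same strand, exons of Top2a overlap those of Gm23451, and exons of Foxm1 those of Gm44596 and Tex52.

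MMF was given at the same dose as DMF. At 24 h 0 of 42 genes were called against LPS with limma, where 0% of the 11584 tested genes were, 1 gene had an unadjusted p below 0.05, and edgeR and DESeq2 each called 0. The log2 fold change was below 0 in 40 genes and above 0 in 2, with a median of -0.11, and the genes are not independent within a library. Replicate 2 was the lowest library in 41 genes in LPS and in 40 in LPS+MMF. The median moved when 1 library of a same-numbered pair was left out. It was -0.003 without MMF replicate 2, where 22 genes were below 0, and -0.04 without LPS replicate 1. It was -0.18 without LPS replicate 2 and -0.17 without MMF replicate 3. The groups did not overlap in 2 genes, Spc24 and Tpx2, where 9% of all tested genes were apart. With the replicate number as a block, 3 genes were lower (0.665% of all tested genes under that fit), Espl1 (-0.20, limma adjusted p = 0.0459), Ndc80 (-0.33, limma adjusted p = 0.0425) and Tpx2 (-0.19, limma adjusted p = 0.0435). For Cdk1 the LPS+MMF libraries held 1862, 1430.1 and 1974 normalised counts beside 1967, 1523 and 1961 in LPS, and for Mki67 8686, 7471 and 7903 beside 8631, 8361 and 8389. Against LPS the log2 fold changes of the 8 genes followed were -0.03 for Ccnb1, -0.05 for Cdk1, -0.03 for Plk1, -0.16 for Cdc20, -0.08 for Mki67, -0.11 for Top2a, -0.05 for Foxm1 and -0.07 for Mybl2. Their 95% intervals were -0.37 to 0.26 for Cdk1, -0.24 to 0.19 for Ccnb1, -0.27 to 0.21 for Plk1 and -0.25 to 0.09 for Mki67, and over all 42 genes they reached from -0.72 to 0.31. The summed level was 92.9% of the LPS mean, and 92.2, 89.3 and 97.0% for same-numbered libraries.

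DMF and MMF differ in structure by a methyl ester, which DMF carries at both ends of fumaric acid and MMF at a single end. This pair was compared at the same dose at both times, which makes 2 comparisons. Directly compared, they differed in most of these genes at 24 h. With DMF 35 of 42 genes were lower than with MMF (11.4% of all tested genes were), with a median log2 fold change of -0.61, and in 28 the groups did not overlap (20.7% of all tested genes). Cenpf had 1071, 489.9 and 612 normalised counts with DMF and 1723, 1134 and 1491 with MMF (log2 fold change -1.06, SE 0.25, limma adjusted p = 0.0174). Aurkb had 906, 617 and 651 and 1555, 1254 and 1499 (log2 fold change -1.003, SE 0.14, limma adjusted p = 0.0019), without overlap. Pttg1 had a log2 fold change of -0.96 (95% interval -1.31 to -0.61), Ccnb1 -0.85 (-1.21 to -0.48), Cdk1 -0.74 (-1.11 to -0.36) and Plk1 -0.79 (-1.15 to -0.42). Mki67 had -0.55, Top2a -0.89, Cdc20 -0.49 and Foxm1 -0.58, all of them called.

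The 7 genes that did not pass the test between DMF and MMF at 24 h were Spc25, Ttk, Anln, Kif23, Kif4, Cenpe and Ndc80. Their log2 fold changes ran from -0.57 in Spc25 (95% interval -1.04 to -0.11) to -0.33 in Ndc80 (-0.81 to 0.15), and only the interval of Ndc80 held 0. Mybl2 had the smallest log2 fold change among those called, -0.31 (limma adjusted p = 0.0462). Adjusted over both times together, 33 genes were lower at 24 h, without Mad2l1 and Mybl2, and 1 was higher at 4 h. With the replicate number as a block, 42 genes were lower with DMF, where 21.3% of all tested genes were under that fit. The count without a block fell to 10 when DMF replicate 3 was left out, to 12 for MMF replicate 3, to 16 for MMF replicate 1 and to 21 for DMF replicate 2.

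At 4 h few of the mitotic genes were called with any drug. Against LPS, 2 of 42 genes were higher with DMF (4.55% of all tested genes were), with a median of 0.14 and 34 genes above 0. In 13 genes all DMF libraries were above all LPS libraries, where 14.5% of all tested genes were higher without overlap. Cenpf had 2109, 2128 and 2638 normalised counts with DMF and 1770.02, 1665 and 1762 in LPS (log2 fold change 0.39, SE 0.10, limma adjusted p = 0.0375), and Incenp 7049.6, 6156 and 7082 and 5641, 4781 and 5449 (log2 fold change 0.35, SE 0.09, limma adjusted p = 0.0436). The summed level was 111% of the LPS mean, and 109, 110.5 and 114% for same-numbered libraries. The DMF libraries held 104503, 101650.0 and 113604 normalised counts in sum and the LPS libraries 96153, 91992 and 99407, so the groups did not overlap. With the replicate block 3 genes were higher, Kif23 besides these, where 5.98% of all tested genes were under that fit. With the block and the GC and length trend removed together, 12 genes were higher, where 10.2% of all tested genes were. Among these 12 were Ccnb1 (log2 fold change 0.23, limma adjusted p = 0.0358) and Plk1 (log2 fold change 0.21, limma adjusted p = 0.0407). Without a block, each of the 2 calls was lost without LPS replicate 1, 2 or 3 and without DMF replicate 3. With no block and no trend removed, none of the 8 genes followed passed. Their log2 fold changes in that fit were 0.23 for Ccnb1, -0.00 for Cdk1, 0.16 for Plk1 and 0.14 for Cdc20. For Mki67, Top2a, Foxm1 and Mybl2 they were 0.21, -0.11, 0.07 and 0.12. The 95% interval was -0.21 to 0.21 for Cdk1, -0.03 to 0.49 for Ccnb1 and -0.31 to 0.08 for Top2a. Compared with MMF at 4 h, 1 gene was higher with DMF (3.37% of all tested genes), and it was Aurka. It had 2502, 2302 and 2477 normalised counts with DMF and 1999, 1839 and 2010 with MMF (log2 fold change 0.31, SE 0.08, limma adjusted p = 0.0447). That call was lost when any library but DMF replicate 2 was left out. Of the 8 genes followed, Ccnb1 had the highest log2 fold change, 0.29, and Top2a the lowest, -0.11.

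MMF and CBD at 4 h gave 0 calls each among the 42 genes with limma, where 0.122% and 0.00875% of all tested genes were called. In each, 1 gene had an unadjusted p below 0.05, and edgeR and DESeq2 called 0. The 42 genes were split evenly for MMF, 21 above 0 and 21 below 0, and 31 were below 0 for CBD. The 8 genes followed lay between -0.10 (Cdk1) and 0.10 (Mki67) with MMF and between -0.17 (Cdc20) and 0.05 (Mki67) with CBD. The summed level at 4 h was 101% of the LPS mean with MMF and 97.2% with CBD.

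The difference between the times was tested itself. The DMF effect against LPS was more negative at 24 h than at 4 h in 40 of 42 genes (8.15% of all tested genes), with a median difference of -0.88 on the log2 scale. It was largest in Cenpf (-1.62, SE 0.30, limma adjusted p = 0.00245), Prc1 (-1.23) and Ect2 (-1.18), and Mad2l1 (-0.48, limma adjusted p = 0.0571) and Spc25 (limma adjusted p = 0.0617) did not pass. Leaving out single libraries gave 31 to 42 genes, with 31 without DMF replicate 3 at 24 h. Of the 40 calls 31 stood in all 19 alternatives that kept the threshold. Kif4 and Ndc80 lost theirs in 11 of them, Mybl2 and Ttk in 8, Birc5 and Nuf2 in 7, Foxm1 in 6, Cenpe in 5 and Cdc25c in 1. The CBD effect was more negative at 24 h in 41 genes (16.5% of all tested genes), with a median difference of -1.06 and the largest in Spc24 (-1.55, SE 0.18), Kif20a (-1.52) and Cenpf (-1.50). Mad2l1 did not pass (-0.26, limma adjusted p = 0.16). For MMF 0 genes passed with limma (0% of all tested genes), 1 had an unadjusted p below 0.05, edgeR and DESeq2 called 0, and the median difference was -0.12.

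**Figure D5:**
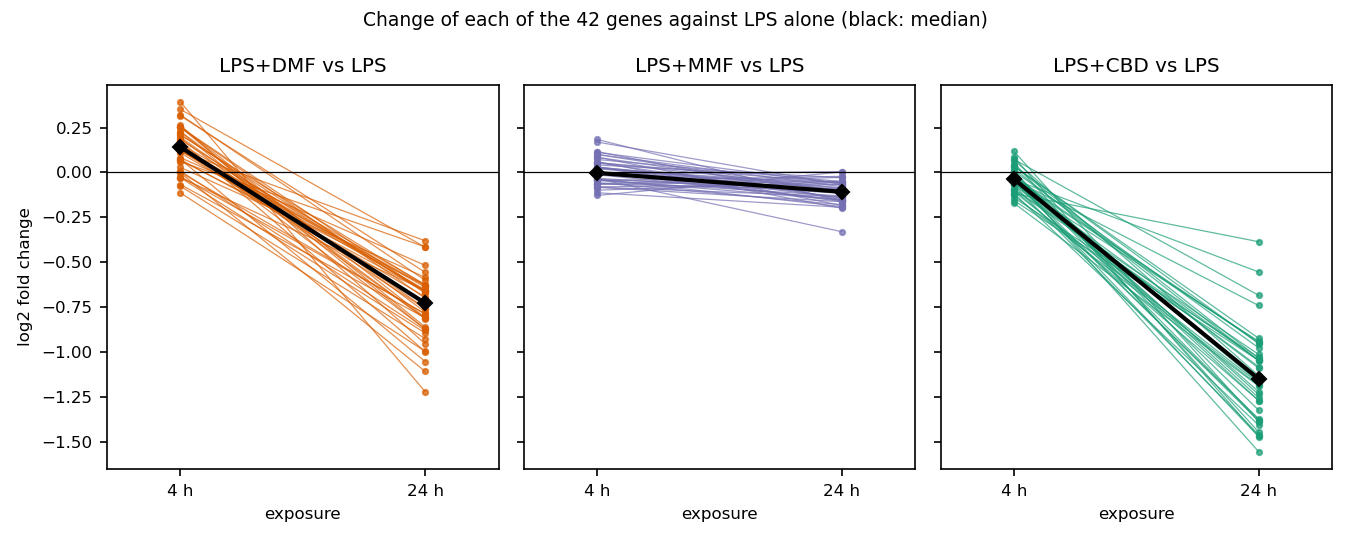
Log2 fold change against LPS of each of the 42 genes at 4 h and at 24 h (1 line a gene) for DMF, MMF and CBD, with the median in black. The lines of DMF go from a median of 0.14 to -0.73 and those of CBD to -1.15, while the median of MMF at 24 h is -0.11.

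Other genes of the same pathways were taken from lists of mitotic and cell cycle genes, also chosen with earlier results of these data known. They were tested within the same fits (13.2% of all tested genes were lower with DMF and 24.8% with CBD). With DMF at 24 h, 25 of 28 other spindle, motor and cytokinesis genes were lower and none higher (median -0.66), among them Depdc1b (-1.20) and Fam83d (-1.12). Of the other kinetochore and checkpoint genes 19 of 34 were lower (median -0.49, Cenpm -1.13), of other mitotic kinases and phosphatases 10 of 12 (-0.61, Wee1 -0.83), and of condensin and cohesin genes 12 of 16 (-0.49). Of the DNA replication genes 31 of 38 were lower (-0.57), with Rrm2, a subunit of ribonucleotide reductase, at -0.93. Of the anaphase-promoting complex genes 4 of 14 were lower, with a median of -0.12, and of the MuvB, DREAM and pocket protein genes 4 of 11, with a median of -0.29. Of the G1 cyclins and CDK inhibitors 5 of 13 were lower (-0.31, Cdkn2c -0.91).

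With CBD at 24 h, all 28 spindle, motor and cytokinesis genes were lower (median -0.98, Fam83d -1.52), 24 of 34 kinetochore genes were lower and 1 higher (-0.67), and 15 of 16 condensin and cohesin genes were lower (-0.73, Ncapd2 -1.29). Of the mitotic kinases and phosphatases 10 of 12 were lower (-0.76, Pbk -1.30). Of the DNA replication genes 35 of 38 were lower and 1 higher (-0.76), with Rrm2 at -1.87, the licensing factor Cdc6 at -1.63 and thymidine kinase Tk1 at -1.40. The G1 list had 10 of 13 lower (-0.61), with cyclin D1 (Ccnd1) at -1.70 and cyclin E1 (Ccne1) at -1.52. Of the anaphase-promoting complex 6 of 14 were lower and 1 higher, Fbxo5, an inhibitor of the complex, at -1.27 and Anapc7 at 0.57 (median -0.15). The MuvB list had 4 of 11 lower (-0.23). With MMF at 24 h, 0 genes of any of these lists were called with limma.

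The vehicles served as a background. Between DMSO and EtOH 0 of 42 genes were called at 4 h with limma (0% of all tested genes), edgeR called 0 and DESeq2 1, and the unadjusted p was below 0.05 in 3. With the replicate block 3 were higher in DMSO, Bub1 (0.30), Cenpf (0.21) and Anln (0.13). That fit called 876 of all 11458 tested genes, 3.84% higher in DMSO among them, so the vehicles differed from each other under the block. At 24 h 0 were called (0.00854% of all tested genes), the unadjusted p was below 0.05 in 0 genes, and edgeR and DESeq2 called 0. The count was also 0 without EtOH replicate 4 and with its reads halved.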

How the data were processed

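Poly(A) RNA of BV-2 cells was measured in 36 libraries, 3 in each of 12 groups. Per the study's methods, the authors checked reads with FastQC 0.12.1, trimmed them with Cutadapt 4.4 and Trimmomatic 0.39, aligned them to GRCm39 with HISAT2 2.2.1, counted them per gene with HTSeq 2.0.3 and normalised them with DESeq2 1.40.2 in R 4.3.1. The strand setting of the counting is not given in the sources used here. The authors deposited 30 tables, one for each pair of groups, whose 180 library columns hold normalised counts, a signal equal to the read count divided by that table's size factor. The deposited log2 fold changes, p-values and Wald statistics (a score) of the authors' own DESeq2 comparisons were not used.

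The values of 155 columns were returned to whole reads (100.0% of 2695078 values were whole within 0.01 reads), and the reads of the remaining columns were taken from other tables of the same libraries. Libraries held 14.1 M to 26.7 M reads. Levels across groups used joint median-of-ratios factors on these reads. With counts of this depth the spread between 3 libraries, and not counting error, limits the precision.

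Each of 20 comparisons was fitted with limma 3.58.1 (R 4.3.3, trended variance) on log2(deposited normalised count + 1) over its 6 libraries, for genes with 10 or more in at least 3 libraries. P-values were two-sided, adjusted by Benjamini-Hochberg over all tested genes, and called below 0.05. The 3 tests of a drug effect between times used 12 libraries and the joint factors. Because deposited values are normalised rather than raw, edgeR 4.0.16 and DESeq2 1.42.0 on the recovered reads were alternatives, beside TMM factors, another pseudocount, no filter, GC and length trends removed, 1 fit of all 36 libraries, a replicate block and each library left out. Halving the reads of EtOH 24 h replicate 4 was added after seeing the data. The fitting script was tested on simulated data with known changes.

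Replicate numbers were taken to pair libraries where the 3 same-numbered pairs' deviations from their group means all correlated above 0.1. This held for DMF at 4 h and 24 h, MMF at 24 h and CBD at 4 h and 24 h against LPS (r 0.126 to 0.680), for DMF against MMF at 24 h, for DMSO against EtOH at both times, and for LPS and LPS+MMF between times. The labels describe 3 independent experiments but do not tie numbers to them, and p-values measure the spread between these libraries.

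The 42 genes and all lists were chosen with earlier results of these data known, so they are not independent evidence. All 42 genes are named by role. In each comparison fuller values are given for the called genes with the 3 largest rises and falls, and for Ccnb1, Cdk1, Plk1, Cdc20, Mki67, Top2a, Foxm1 and Mybl2 whether called or not. Library values of Cdc25c, Mad2l1, Incenp, Spc24, Prc1 and a few others were added after their values were seen. Promoter sequences are RefSeq GRCm38.p6, a build other than that of the tables. Analyses used Python 3.11.15, pandas 2.3.3, numpy 2.4.6 and matplotlib 3.10.9.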

Additional observations from a re-analysis of the deposited data

Results flagged for a closer look

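The effect of DMF and that of CBD against LPS differed between the times in the test of the difference itself (limma interaction term, 12 libraries). For DMF the effect was more negative at 24 h in 40 genes, and in 31 to 42 when single libraries were left out. Among the anchor genes the difference on the log2 scale was -1.11 for Ccnb1, -0.98 for Plk1, -0.89 for Top2a, -0.84 for Mki67, -0.80 for Cdc20, -0.80 for Cdk1, -0.71 for Foxm1 and -0.51 for Mybl2. The calls of Foxm1 and Mybl2 were lost in 6 and 8 of 19 alternatives, each of which left out 1 library. For CBD it was more negative in 41 genes, with -1.49 for Mki67, -1.34 for Top2a, -1.31 for Plk1, -1.28 for Cdk1, -1.14 for Mybl2, -1.01 for Cdc20, -1.003 for Ccnb1 and -0.99 for Foxm1. Both tests share the LPS libraries. Time in low serum changed with exposure time in all groups, and its part in these differences cannot be told apart from that of the drug's duration.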

How the results depend on the processing

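Of 358 counts under alternatives, 294 stayed within 1.5 times the reported count and 64 did not. Of 6143 values of called genes, 5843 kept their call, 300 kept their direction and lost it, and 0 reversed. The 42 lower genes with CBD at 24 h and the 42 with DMF at 24 h stayed at 41 to 42 and 30 to 42 when single libraries were left out, and edgeR called 42 and DESeq2 41 with DMF. Requiring a log2 fold change above 1 as well left 0 genes in LPS against DMSO and against EtOH at 4 h and at 24 h, in DMF against LPS and against MMF at 4 h, and between the times in DMSO, EtOH, LPS and LPS+MMF. It left 3 in DMF against LPS and 2 in DMF against MMF at 24 h, and 11 for DMF and 27 for CBD in the difference between times. DESeq2 gave 1 for DMSO against EtOH at 4 h, 2 for LPS against DMSO and 2 against EtOH at 24 h, 4 for DMF against LPS at 4 h and 2 for DMF against MMF at 4 h. Removing the GC and length trend gave 7 for LPS against DMSO and 0 against EtOH at 4 h, 2 and 3 at 24 h, and 4 for DMF against LPS at 4 h, which became 12 with the replicate block. A pseudocount of 5 gave 2 for LPS against DMSO at 24 h. With all 36 libraries in 1 fit the counts were 0 for LPS against DMSO and 0 against EtOH at 4 h, 1 for DMF against LPS and 2 for DMF against MMF at 4 h. Without a filter the last pair gave 1 and 0. The cause of these differences was not tested.

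The replicate block gave 3 for MMF against LPS at 24 h and 3 for DMSO against EtOH at 4 h. It moved no other count by over 1.5 times where numbers pair the libraries. Where they share only a number, it gave 6 for DMF against MMF at 4 h, all higher, where 6.3% of all tested genes were (r 0.0418 to 0.621). No paired analysis was possible because LPS and vehicle libraries share no replicate numbers, for LPS against DMSO or EtOH. Leaving out single libraries gave 1 to 3 for LPS against DMSO and 0 to 1 against EtOH at 4 h, 1 to 4 and 0 to 3 at 24 h, 0 to 4 for DMF against LPS and 0 to 3 against MMF at 4 h, and 10 to 41 for DMF against MMF at 24 h. Between the times it gave 18 to 31 in LPS. The median over the 42 genes moved by more than the spread between replicates in 2 cases, to -0.00 for the MMF difference between times without LPS+MMF 24 h replicate 2 and to -1.22 for CBD without LPS+CBD 24 h replicate 1.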
